A study of Mus musculus with 4 samples.

Results

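The axon guidance ligands and receptors are the semaphorins, the plexins and neuropilins that receive them, the netrins, the Slit ligands with their Robo receptors, and the ephrins with their Eph receptors. Members were taken by symbol, as every gene listed in the count matrices whose name begins with Sema3 to Sema7, Plxna to Plxnd, Nrp1 or Nrp2, Ntn1 to Ntn5, Slit1 to Slit3, Robo1 to Robo4, Epha, Ephb, Efna or Efnb. This gave 64 of the 19465 genes listed, of which 20 are semaphorins, 11 plexins and neuropilins, 4 netrins, 7 Slit and Robo genes, 14 Eph receptors and 8 ephrins. The rule used symbols and no value of these genes, but earlier results of these data were known when it was set.

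These molecules steer growing axons by attracting or repelling the growth cone, and the same molecules guide migrating neural crest cells and shape vessels, bone and epithelia. Secreted semaphorins bind neuropilins that signal with plexins, whereas transmembrane semaphorins bind plexins directly. Netrins act through Dcc, Neo1 and the Unc5 receptors, Slits act mainly as repellents through Robo receptors, and ephrins, which stay on the cell surface, meet Eph receptors on neighbouring cells.

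The series profiled mid-palatal coronal sections of whole heads from wild-type C57BL/6J mouse embryos with Visium, an array of barcoded spots that records the RNA under each point of a section, in formalin-fixed, paraffin-embedded tissue. Embryos were at embryonic day 14.5 (E14.5) or 15.5 (E15.5), untreated and without any engineered allele. Each stage had 2 capture areas, each of which is a library: replicate 1 was alone on an area, and replicates 2, 3 and 4 shared the other. The study describes its spatial replicates as biological, but sections that shared an area were not separated here. Capture areas were therefore the samples, 2 per stage. In the stage comparisons p-values measure the spread between areas, which also differ in depth, software version and number of sections.

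The 4 areas held 6357 spots over tissue and between 15438992 and 109127953 unique molecular identifiers (UMIs), each a captured molecule. Depth was lowest in the area of E14.5 replicate 1, where spots had a median of 6752 UMIs, against medians from 45058.5 to 64051 elsewhere, so rare genes were measured least precisely there. Its summed lens markers made up 1.3 in 1000000 UMIs, against between 697 and 2198 in the other areas. Spots over the neuronal and radial glia markers held 50.5%, 30.8%, 22.9% and 8.72% of the UMIs of the areas, in the order E14.5 replicate 1, E14.5 replicates 2, 3 and 4, E15.5 replicate 1, and E15.5 replicates 2, 3 and 4. Values for each area are given in this order throughout.

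All 64 members had UMIs in every area, and together they made up 0.508%, 0.497%, 0.484% and 0.440% of all UMIs. Levels are in CPM, the UMIs of a gene scaled to a total of 1000000 UMIs in the area or class. A CPM depends on the probes of a gene as well as on its RNA, so levels of different genes are not compared. In bulk sums of spots, fewer cells expressing a gene and less RNA per cell cannot be told apart. The median member stood at 69.2, 64.5, 59.5 and 45.5 CPM. Epha6, an Eph receptor for A-type ephrins, was the member that lay under 1 CPM in every area, on 12, 67, 25 and 82 UMIs.

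The genes followed here over the 4 areas are those with the most UMIs in each family. The receptor Robo1 stood at 304, 353, 313 and 197 CPM and Robo2 at 252, 188, 185 and 119 CPM. Among receptors for semaphorins, the co-receptor Nrp2 stood at 174, 275, 206 and 293 CPM, and Plxnd1, a plexin for Sema3e that is known from endothelium, stood at 133, 211, 229.7 and 228 CPM. Nrp2 and Plxnd1 were lowest in E14.5 replicate 1, and Robo1 and Robo2 were lowest in E15.5 replicates 2, 3 and 4. The secreted ligand Sema3f was measured at 122, 166, 146 and 103 CPM and the transmembrane Sema6d at 129.9, 106, 131 and 84.7 CPM. Ntn1, the netrin of the floor plate and of many epithelia, was at 145, 173, 118 and 119.9 CPM and Ntn3 at 42.2, 52, 49.5 and 46.9 CPM. The mean of Ntn3 was 47.7 ± 4.18 CPM and that of Ntn1 139 ± 25.7 CPM (SD, n = 4 areas). Among Eph receptors, Epha4 was at 241, 229.9, 176 and 135 CPM and Ephb3 at 108, 176, 138 and 176 CPM, and the B-type ephrins Efnb3 and Efnb1 were at 212, 196, 140.1 and 117 CPM and 177, 119, 170.4 and 127 CPM. Epha4 and Efnb3 were both lower in each E15.5 area than in either E14.5 area, which is taken up with the stage comparison.

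To ask in which tissues the members were expressed, each spot was put in a tissue class by lists of marker genes, none of which is a member. The 11 classes held 6337 spots: neuronal (989 spots), radial glia (446), ganglion (268), olfactory neuron (227), retina (424), muscle (702), cartilage (455), bone (594), oral mesenchyme (616), loose mesenchyme (1174) and stratified epithelium (442). A class name states the list that stood out most in a spot and is no cell type, since a Visium spot covers several cells. Of the tissue spots, 96.6% passed the threshold of more than 1 list, and the largest excess in standard deviations set the class. In 26.1% of spots the next list came within 0.25 standard deviations of the leading list. The spots of the olfactory neuron class had a median of 45.3 cartilage marker UMIs per 10000, against 5.89 for their own list. In other classes too another list gave the highest median: neuronal markers in radial glia spots (29.9, own list 12.2), and loose mesenchyme markers in oral mesenchyme (62.1, own 11.5), retina (37.4, own 18.3) and stratified epithelium spots (76.1, own 62.6). The part of such mixing in the class calls was not tested. Each class was compared with the mean of the other classes in an edgeR quasi-likelihood test on UMIs summed per class and area, with area as a block. The p-values of these contrasts measure the spread of the class sums that is left after the area block. They do not measure the spread between areas, and all class sums come from the same 4 libraries. Members were called at an adjusted p under 0.1 and a log2 fold change of at least 1 in either direction.

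Of the 63 members tested, 48 were called in at least 1 class and 38 were higher in at least 1 class, with 133 calls in all. Of the 13896 genes tested, 46.5% were called in at least 1 class and 38.9% were higher in at least 1 class. Ephb2 was too rare to be tested. Neuronal spots held 24 members called higher, where 13.7% of the 13896 genes tested were higher, and 12 called lower, where 18.1% of genes were lower. The median log2 fold change of members there was 0.57, and it was 0.00 over all genes tested. In radial glia spots 12 members were higher and 16 lower, with 8.6% of genes higher and 19.2% lower. In the other classes between 0 and 6 members were higher. The 16 members without a call were Sema3a, Sema4b, Sema4c, Sema4d, Sema5a, Sema6a, Nrp1, Plxna1, Plxnb2, Robo4, Efna2, Efna4, Efna5, Efnb2, Epha7 and the untested Ephb2. Below, a number in parentheses after CPM values is the log2 fold change of that class against the mean of the others.

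**Figure D1:**
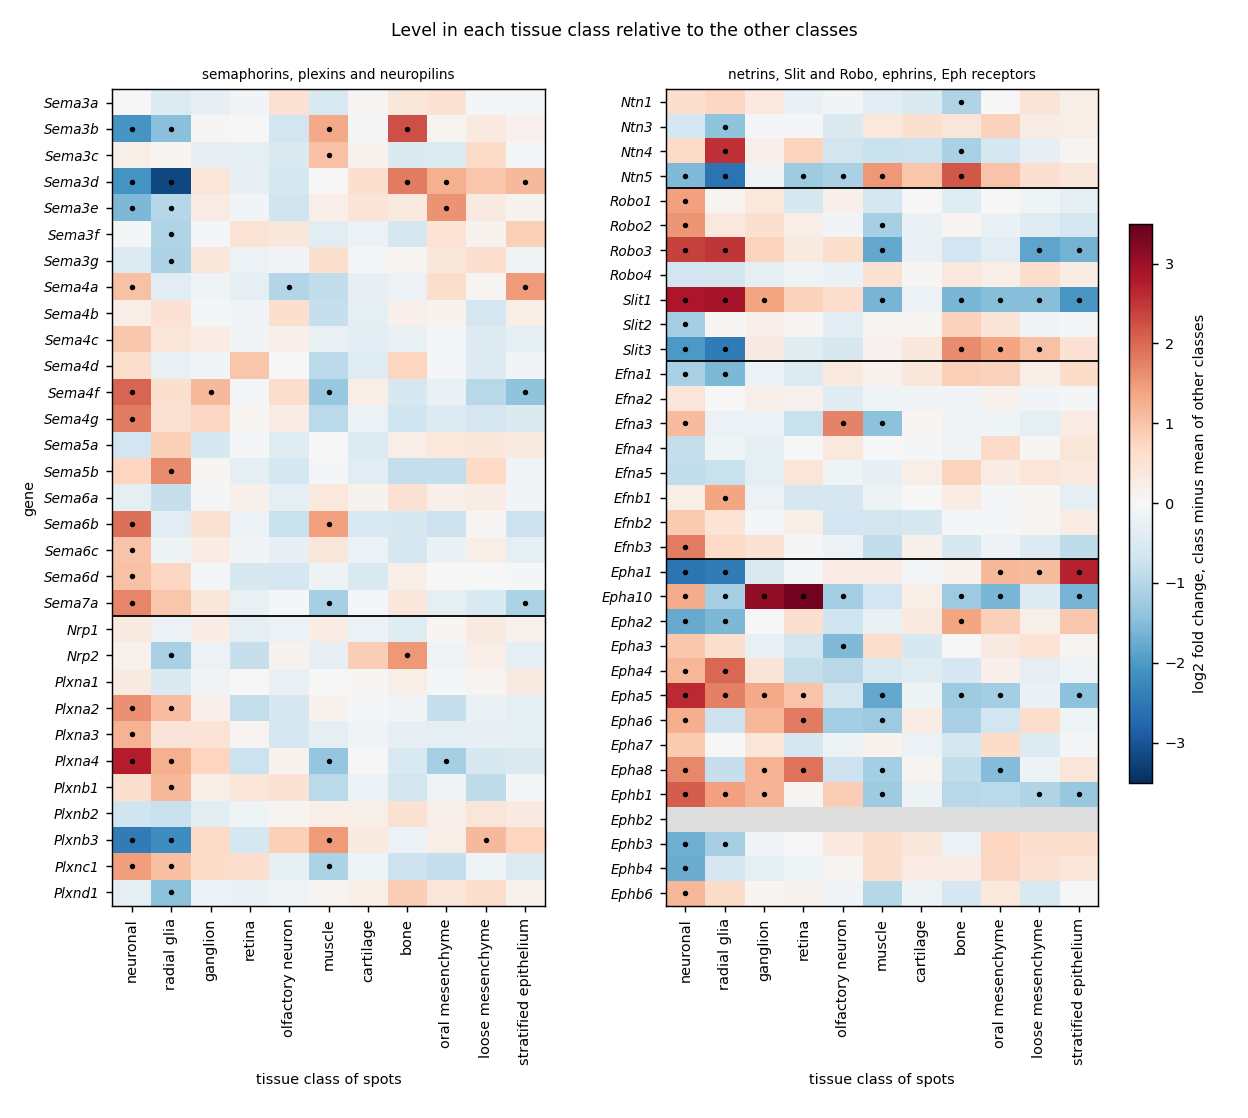
Log2 fold change of each gene (rows, grouped by family) in each tissue class of spots (columns) against the mean of the other classes, red for higher and blue for lower, with black dots on calls; Ephb2, in grey, was not tested. The neuronal column holds 24 of the calls for higher members and the cartilage column none, and the Slit1 and Slit3 rows run in opposite directions.

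Slit1 and Slit3 were called in opposite directions in brain and in mesenchymal tissues. Slit1, a ligand of the developing brain, stood at 149, 187, 159.7 and 166 CPM in neuronal spots and at 148, 232, 146 and 188 CPM in radial glia spots. In stratified epithelium it stood at 4.34, 9.01, 11.4 and 6.53 CPM, so every brain value lay above every epithelial value. The log2 fold change was 2.84 in neuronal spots (SE 0.14, adjusted p = 5.31e-20) and 2.88 in radial glia spots (SE 0.15). It was called lower in muscle, bone, oral mesenchyme, loose mesenchyme and stratified epithelium. Slit1 was also called higher in ganglion spots (1.37 on the log2 scale), where its level was 127, 69.6, 66.8 and 45.4 CPM and exceeded the mean of the other classes in 3 of 4 areas.

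Slit3 had the opposite distribution. It stood at 168, 283, 161 and 238 CPM in bone spots, at 157, 244, 181 and 213 CPM in oral mesenchyme and at 128, 202, 119 and 168 CPM in loose mesenchyme. Neuronal spots held 15.1, 28.5, 15.9 and 22.2 CPM and radial glia spots 9.47, 25.2, 4.92 and 30.2 CPM. Every area of the mesenchymal and bone spots lay above every area of the brain spots. The log2 fold changes were 1.66 in bone (SE 0.11, adjusted p = 6.36e-16), 1.39 in oral mesenchyme and 1.02 in loose mesenchyme, against -2.0 in neuronal and -2.45 in radial glia spots. The call in loose mesenchyme fell under the required fold without E14.5 replicate 1, at 0.97.

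Slit2 had a call in neuronal spots only, where it was lower (log2 fold change -1.18) at 34.5, 47.1, 27.8 and 37.6 CPM. Its highest mean was in bone spots, at 127 ± 31 CPM (SD, n = 4), but the areas of bone overlapped those of oral mesenchyme, at 119 ± 18.5 CPM.

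Of the Robo genes, Robo1, Robo2 and Robo3 were called higher in neuronal spots. Robo1 stood there at 554, 642, 659.8 and 386 CPM against 181, 310.4, 259.8 and 198 CPM for the mean of the other classes (log2 fold change 1.43, adjusted p = 1.63e-17). Robo2 stood at 450.1, 383, 424 and 235 CPM (1.55 on the log2 scale), and lower in muscle, at 65.9, 74.2, 65.3 and 64.3 CPM (-1.17). Both Robo genes were above the other classes' mean in neuronal spots of all 4 areas. Robo3, the divergent Robo of commissural axons, was at 7.02, 10.501, 12.7 and 21.3 CPM in neuronal spots and 13.5, 8.6, 14.3 and 25.4 CPM in radial glia spots. In muscle it was at 1.69, 0.749, 1.66 and 0.643 CPM, and it was called lower in muscle, loose mesenchyme and stratified epithelium. Muscle, cartilage, bone and both mesenchyme classes of E14.5 replicate 1 together held 8 Robo3 UMIs. Robo4, known from endothelium, was called in no class and ranged from 15.1 CPM in neuronal to 37.8 CPM in loose mesenchyme spots by class mean. The summed endothelial markers were at 258 CPM in neuronal and 486 CPM in loose mesenchyme spots. They were lowest in radial glia spots, at 186 CPM, and stood at 379 CPM in bone. Stratified epithelium, the second class for Robo4 at 34.5 CPM, had 334 CPM of them. The part of endothelium in the Robo4 levels was not tested.

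**Figure D2:**
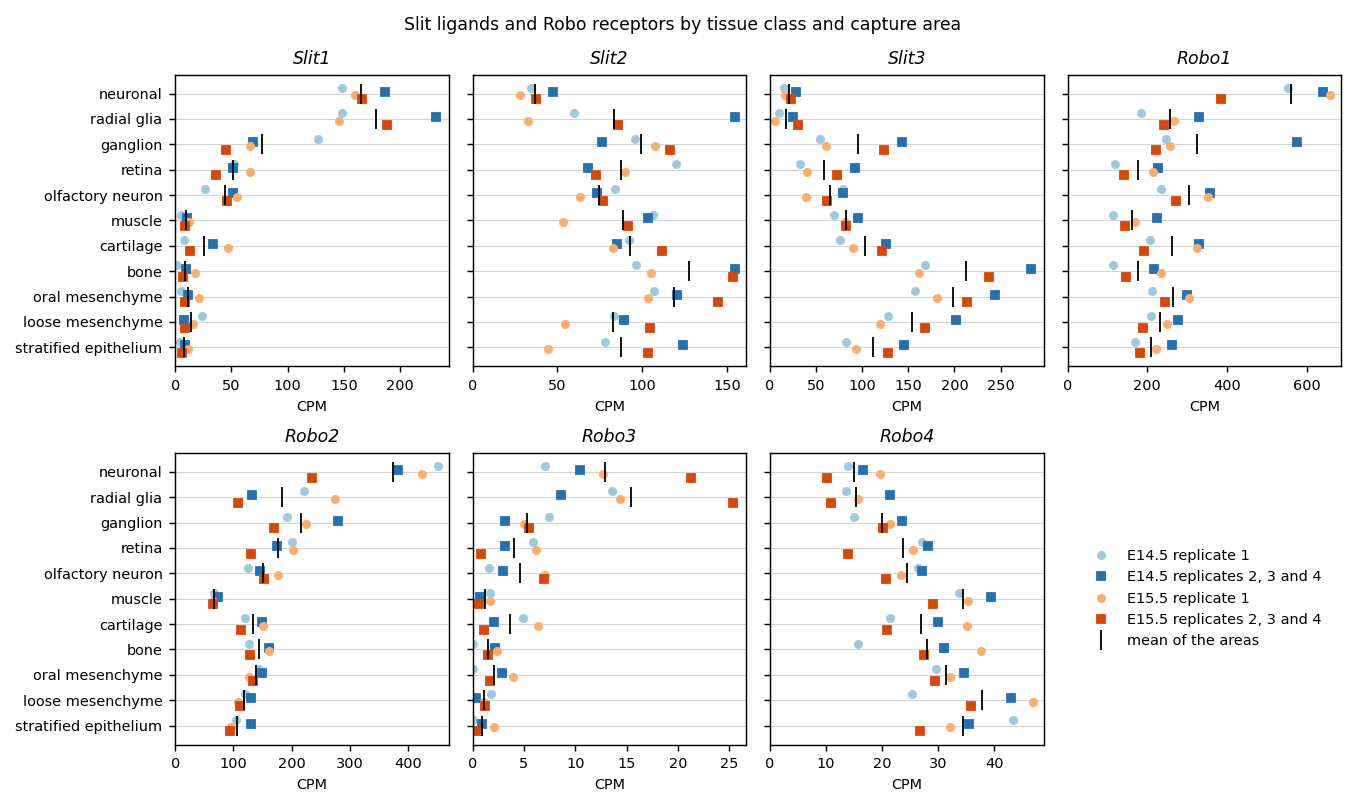
CPM (x axes, each from 0) of the Slit and Robo genes in each tissue class (rows), with a point for each capture area and a black tick for the mean of the 4 areas. Slit1 reaches 232 CPM in radial glia spots and stays under 25 CPM in muscle, bone, oral and loose mesenchyme and stratified epithelium, Slit3 stands above 118 CPM in bone and both mesenchyme classes, and Robo1 is highest in neuronal spots.

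The positions of the spots on the array show how Slit1, Slit3, Sema3b and Epha1 were spread over the sections.

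**Figure D3:**
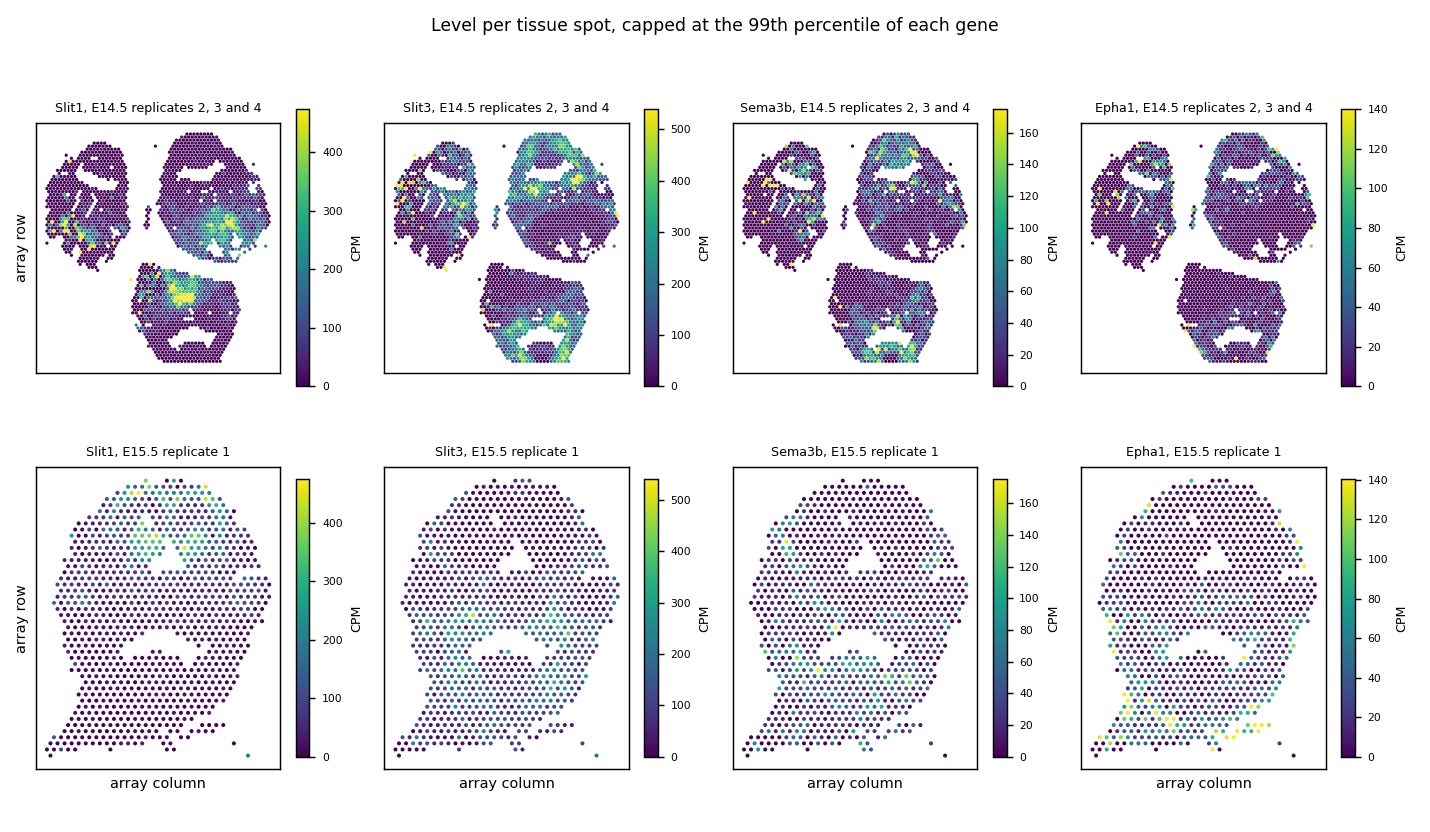
CPM per tissue spot (colour, capped at the 99th percentile of the gene) of Slit1, Slit3, Sema3b and Epha1 at the array positions of the spots, for the E14.5 area of replicates 2, 3 and 4 (top) and the E15.5 area of replicate 1 (bottom). Spots with high Slit1 form blocks apart from those with high Slit3 and Sema3b, and spots with high Epha1 form thin lines; in spots of low depth a single UMI gives a high CPM.

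The promoters of 5 members with different leading classes are printed, so that the base composition of genes with opposite tissue patterns can be set side by side. The windows run from 250 bases before to 50 after the RefSeq gene start (GRCm38.p6), 5′ to 3′ on the strand of the gene, and capitals mark each GGGCGG or its reverse complement CCGCCC. By class mean, Epha5 led in neuronal and Ntn4 in radial glia spots, Slit3 and Sema3d in bone spots, and Epha1 in stratified epithelium. Areas of the leading class overlapped those of the next class for Epha5 (radial glia) and for Slit3 and Sema3d (oral mesenchyme). Epha5 lies at chr5:84417333-84417632 on the minus strand, Ntn4 at chr10:93640799-93641098 on the plus strand, Slit3 at chr11:35121206-35121505 on the plus strand, Sema3d at chr5:12382916-12383215 on the plus strand, and Epha1 at chr6:42373219-42373518 on the minus strand.
Epha5: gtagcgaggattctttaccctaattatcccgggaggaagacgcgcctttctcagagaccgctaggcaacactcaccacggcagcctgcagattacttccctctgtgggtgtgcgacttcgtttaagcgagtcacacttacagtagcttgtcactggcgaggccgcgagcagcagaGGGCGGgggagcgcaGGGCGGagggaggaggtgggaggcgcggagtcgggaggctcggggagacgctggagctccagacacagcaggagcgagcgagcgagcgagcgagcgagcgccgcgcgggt
Ntn4: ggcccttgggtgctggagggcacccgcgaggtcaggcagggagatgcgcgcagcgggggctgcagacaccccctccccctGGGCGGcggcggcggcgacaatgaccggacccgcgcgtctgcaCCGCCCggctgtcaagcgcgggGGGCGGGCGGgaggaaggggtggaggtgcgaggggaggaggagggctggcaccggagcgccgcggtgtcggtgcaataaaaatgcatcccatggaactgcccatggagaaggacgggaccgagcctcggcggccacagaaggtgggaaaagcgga
Slit3: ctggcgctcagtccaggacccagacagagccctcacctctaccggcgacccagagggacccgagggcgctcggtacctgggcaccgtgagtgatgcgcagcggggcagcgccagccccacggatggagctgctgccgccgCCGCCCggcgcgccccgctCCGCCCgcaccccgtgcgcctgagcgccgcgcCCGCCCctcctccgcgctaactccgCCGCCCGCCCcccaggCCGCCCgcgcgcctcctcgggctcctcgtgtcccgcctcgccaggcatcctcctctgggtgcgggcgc
Sema3d: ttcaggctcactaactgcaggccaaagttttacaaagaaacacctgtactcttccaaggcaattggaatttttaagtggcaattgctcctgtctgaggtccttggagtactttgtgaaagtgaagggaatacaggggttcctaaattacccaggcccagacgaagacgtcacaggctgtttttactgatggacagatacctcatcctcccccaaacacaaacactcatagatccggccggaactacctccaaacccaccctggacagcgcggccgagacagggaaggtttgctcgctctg
Epha1: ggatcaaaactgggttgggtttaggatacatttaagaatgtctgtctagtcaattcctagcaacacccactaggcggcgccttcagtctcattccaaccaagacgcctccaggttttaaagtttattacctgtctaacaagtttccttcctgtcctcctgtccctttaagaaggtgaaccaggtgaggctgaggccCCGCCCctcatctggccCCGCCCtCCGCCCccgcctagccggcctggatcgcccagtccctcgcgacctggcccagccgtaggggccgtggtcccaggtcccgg

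The Slit3 window had a GC content of 78.3%, with 6 matches of the motif on the 2 strands together, and the Sema3d window 49.7% with none, and both genes led in bone spots. The Ntn4 window held 4 matches, the Epha1 window 3 and the Epha5 window 2. RefSeq gave 72 promoters for 56 of the 64 members, and 70.8% of them held the motif on either strand, against 35.7% of all 32851 promoters. The full set covers 27025 genes, among them genes outside the 19465 listed in the count matrices. The motif TATAAA, or TTTATA on the other strand, was in 2.78% of the member promoters and in 13.6% of all promoters, and the motif CAGCTG, its own reverse complement, was in 16.7% and 16.3%. The median GC content was 64.0% for member promoters and 52.7% for all. A match says that the letters are present and not that a factor binds there.

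Of the secreted semaphorins, Sema3b, Sema3c, Sema3d and Sema3e were called higher in at least 1 class, and Sema3a, Sema3f and Sema3g in none. Sema3b, a secreted ligand for neuropilins, stood at 88.1, 95.5, 63.5 and 89.6 CPM in bone spots against 18.1, 24.9, 20.2 and 23 CPM for the other classes, a log2 fold change of 2.25 (SE 0.10, adjusted p = 2.89e-20). It was also higher in muscle, at 40.6, 58.8, 42 and 44.4 CPM (1.34), and lower in both brain classes. The bone areas lay above the muscle areas without overlap. Sema3b lies at chr9:107597674-107609229 (GRCm38).

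Sema3d stood at 54.8, 30.7, 35.1 and 44.3 CPM in bone spots and at 2.03, 1.65, 0.469 and 3.02 CPM in radial glia spots. Its log2 fold changes were 1.81 in bone, 1.25 in oral mesenchyme, 1.14 in stratified epithelium and -3.19 in radial glia spots. The call in stratified epithelium fell under the required fold at E15.5 alone (0.96) and without the E14.5 area of replicates 2, 3 and 4 (0.99). Sema3e, the ligand of Plxnd1, was higher in oral mesenchyme, at 18.3, 25, 38.5 and 27.8 CPM against 7.63, 8.75, 11 and 10.1 CPM (1.58, adjusted p = 5.12e-11), and lower in neuronal and radial glia spots. Sema3c was higher in muscle, at 108, 174, 116 and 163 CPM (1.01).

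Of the 20 semaphorins, 7 were higher in neuronal spots: Sema4a, Sema4f, Sema4g, Sema6b, Sema6c, Sema6d and Sema7a. Another 3 were lower there, where 13.7% of genes were higher and 18.1% lower. All 7 higher members are transmembrane or membrane-anchored proteins, as are the other members from Sema4 to Sema7. Sema4f stood at 37.6, 35.8, 38.3 and 28 CPM (2.04) and Sema6b at 41.5, 81.4, 48.5 and 75.2 CPM (1.92). Sema6b was in addition higher in muscle, at 35.5, 50.3, 43.4 and 54.6 CPM (1.43). Sema4a led in stratified epithelium, at 21.7, 11.4, 29.2 and 23.1 CPM against 7.68, 5.8, 9.39 and 7.52 CPM (1.5). Sema4g (1.81), Sema7a (1.70), Sema6c (1.0) and Sema6d (1.03) completed the neuronal group. Sema5b was higher in radial glia spots, at 18.9, 19.5, 25.1 and 23.6 CPM (1.67).

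Among the 11 plexins and neuropilins, 4 were called higher in neuronal spots and 1 lower, where 13.7% of genes were higher and 18.1% lower. Nrp2 was called higher in bone. Plxna4, a receptor for secreted and transmembrane semaphorins, reached 449, 313, 603 and 186 CPM in neuronal spots against 58.8, 68.3, 100.2 and 43.7 CPM elsewhere, a log2 fold change of 2.75 (SE 0.12, adjusted p = 5.93e-22). Its areas were spread over a mean of 388 ± 179 CPM (SD, n = 4), with the lowest value in E15.5 replicates 2, 3 and 4. Plxna2 (1.60), Plxnc1 (1.47) and Plxna3 (1.22) were higher in neuronal spots as well, and Plxna2, Plxna4, Plxnb1 and Plxnc1 were higher in radial glia spots.

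Nrp2 was higher in bone spots, at 421, 582, 519.8 and 563 CPM against 186, 243, 183 and 233 CPM (1.51, adjusted p = 1.50e-15), and lower in radial glia spots. Plxnd1 was lower in radial glia spots as well, at 56.8, 82.5, 56.3 and 96.1 CPM against a mean of 209.9 CPM in the other classes (-1.44), where its ligand Sema3e was also called lower (-1.01). Plxnb3, a rare plexin, was at 10.1, 3.14, 4.7 and 2.38 CPM in muscle, at 4.81, 3.41, 4.21 and 1.96 CPM in loose mesenchyme and at 0.619, 0.186, 0.268 and 0.49 CPM in neuronal spots. It was called higher in muscle (1.49) and loose mesenchyme (1.12) and lower in neuronal spots (-2.44). In muscle its level was highest in E14.5 replicate 1, the shallowest area. Neuronal and radial glia spots together held 6, 6, 6 and 3 Plxnb3 UMIs. Summed Schwann cell markers were at 240 CPM in muscle, 132 CPM in loose mesenchyme and 37.2 CPM in neuronal spots. In the other classes they ranged from 39.9 CPM in radial glia to 194 CPM in olfactory neuron spots, with 166 CPM in stratified epithelium. Plxnb3 was called higher in neither olfactory neuron nor stratified epithelium spots, and the part of Schwann cells in its levels was not tested.

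The netrins Ntn4 and Ntn5 were called in opposite directions in radial glia and bone spots. Ntn4, a laminin-binding netrin of basement membranes, stood at 91, 59.8, 122 and 58.6 CPM in radial glia spots against 17.8, 16.5, 16.2 and 13.7 CPM (2.55, SE 0.11, adjusted p = 4.23e-21), above retina, the next class, in every area. In bone spots it stood at 7.83, 9.07, 6.95 and 6.34 CPM (-1.15). Ntn5 had the reverse order, with 5.88, 10.8, 11.2 and 9.87 CPM in bone (2.18), 5.07, 6.51, 7.2 and 7.13 CPM in muscle (1.52) and 0.676, 0.331, 0.234 and 1.81 CPM in radial glia spots (-2.57). Its values rest on few molecules, with 7, 24, 14 and 6 UMIs in neuronal and radial glia spots together. Ntn3 was lower in radial glia spots, at 16.6, 23.6, 14.1 and 17.5 CPM (-1.40). Ntn1 had a single call, lower in bone, at 58.8, 72.5, 67.9 and 54.5 CPM against 153, 174, 123 and 142 CPM (-1.04).

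Of the 13 Eph receptors tested, 7 were higher in neuronal spots and 4 lower, where 13.7% of genes were higher and 18.1% lower. Epha5 stood at 81.4, 43.9, 67.5 and 82.9 CPM in neuronal spots against 21.7, 12.4, 17.3 and 14.2 CPM (2.62, adjusted p = 5.35e-21) and at 8.45, 4.04, 2.49 and 4.69 CPM in muscle (-1.78). Ephb1 was higher in neuronal spots (2.12), at 165, 255, 178 and 192 CPM. Epha4 led in radial glia spots, at 491, 581, 567 and 404 CPM against 119, 179, 134 and 138 CPM (2.01, adjusted p = 5.32e-19), and its radial glia areas lay above its neuronal areas, at 299, 332, 288 and 225 CPM, without overlap. Ephb3 and Ephb4, receptors for B-type ephrins, were lower in neuronal spots, Ephb3 at 37.6, 72, 29.3 and 42.3 CPM (-1.71) and Ephb4, known from veins, at 28.3, 48.8, 27.3 and 23 CPM (-1.75). Both had their highest mean in oral mesenchyme, at 245 ± 27.6 CPM and 175 ± 51.6 CPM (SD, n = 4), without a call there. Epha3 had a single call, lower in olfactory neuron spots, at 41.8, 20.0, 24.5 and 27.9 CPM against 86, 64.6, 68.8 and 74.9 CPM (-1.54).

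Epha1, an Eph receptor of epithelia, was highest in stratified epithelium. It stood at 73.7, 36.3, 83.9 and 71 CPM in stratified epithelium against 10.1, 11.3, 13.6 and 12.1 CPM for the other classes, a log2 fold change of 2.69 (SE 0.14, adjusted p = 3.97e-18). Neuronal spots held 1.65, 2.37, 2.15 and 0.981 CPM (-2.56). It was also called higher in oral mesenchyme, at 28.5, 19, 29.9 and 25.7 CPM (1.17), and in loose mesenchyme, at 14.4, 22.3, 29.6 and 23.9 CPM (1.12), there in 3 of 4 areas. Spots of these mesenchyme classes had medians of 18.3 and 14.5 stratified epithelium marker UMIs per 10000, against 1.41 in neuronal spots, and the part of those markers in the calls was not tested. Epha2 was higher in bone, at 72.5, 56.3, 73.7 and 64.4 CPM (1.37), and lower in both brain classes.

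Retina and ganglion spots shared A-type Eph receptors among their calls. Epha10, a receptor without kinase activity, stood at 16.6, 17.3, 20.8 and 11.5 CPM in retina (3.37, SE 0.26, adjusted p = 1.94e-13) and at 7.46, 8.8, 34.1 and 13.3 CPM in ganglion spots (3.10). The other classes of retina's comparison averaged 1.82, 2.98, 4.21 and 2.7 CPM. Epha8 stood at 30.8, 23.2, 27.9 and 21.5 CPM in retina (1.89) and at 16, 14.4, 39.1 and 7.78 CPM in ganglion spots (1.21), and the ganglion call was lost at E15.5 alone and without E15.5 replicate 1 (log2 fold change 0.87). The rare Epha6 was higher in retina, at 2.37, 1.69, 0.599 and 2.79 CPM (1.81, adjusted p = 9.91e-04). The E15.5 replicate 1 area, which gave the highest ganglion values of Epha10 and Epha8, had 12 ganglion spots. The E14.5 replicate 1 area, where lens markers were at 1.3 CPM, had 58 spots in the retina class. Whether those spots lay over retina was not tested. Ganglion spots also had a median of 40.0 neuronal marker UMIs per 10000, against 4.25 for their own list, and the part of neuronal tissue in the ganglion calls was not tested. All 4 members higher in retina were Eph receptors (4.97% of genes were higher there), as were 4 of the 6 higher in ganglion spots (6.01% of genes).

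A call can rest on the log scale alone. Epha10 was called higher in neuronal spots (1.29), although its CPM there, 2.68, 7.39, 2.41 and 4.09, exceeded the arithmetic mean of the other classes in 2 of 4 areas. That mean includes retina and ganglion spots, and the test averages logarithms over classes. Epha10 was lower in radial glia, olfactory neuron, bone, oral mesenchyme and stratified epithelium spots. The olfactory neuron call (adjusted p = 0.0834) was lost when any area was left out.

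Of the 8 ephrins, 4 were called in at least 1 class, where 46.5% of genes were. Efna3, an A-type ephrin, led in olfactory neuron spots, at 62, 87.6, 73.1 and 86.6 CPM against 22.7, 25.2, 24.5 and 21 CPM (1.73, adjusted p = 7.79e-16), and was higher in neuronal spots and lower in muscle. It was the single member called higher in olfactory neuron spots, where 6.93% of genes were higher. Efnb3, a B-type ephrin of the midline, was higher in neuronal spots, at 316, 446, 294 and 462 CPM (1.78), and Efnb1 in radial glia spots, at 388, 168, 453 and 235 CPM (1.39). Efna1 was lower in both brain classes, at 23.3, 20.0, 23.5 and 19.5 CPM in neuronal spots (-1.14). Efna2, Efna4, Efna5 and Efnb2 were called in no class.

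Bone, muscle and the mesenchymal and epithelial classes had fewer members called higher than neuronal spots. The same order held over all genes tested, of which 13.7% were higher in neuronal spots. Bone had 6 higher and 5 lower, where 4.97% and 5.48% of genes were higher and lower. Muscle had 5 higher and 12 lower (5.84% and 8.23% of genes), oral mesenchyme 4 and 5 (4.6% and 4.45%), loose mesenchyme 3 and 3 (6.08% and 3.22%) and stratified epithelium 3 and 7 (7.53% and 8.03%). Cartilage had none in either direction by edgeR or DESeq2, where 3.95% of genes were higher and 0.482% lower, and at an unadjusted p under 0.05 with no requirement on the fold the edgeR test gave 12 members higher and 15 lower. Olfactory neuron spots had 4 lower (5.41% of genes), retina 1 lower (2.71%) and ganglion none lower by edgeR or DESeq2 (0.748%), with 7 members lower at an unadjusted p under 0.05.

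Other genes of the pathway, a list of receptors, ligands and effectors outside the symbol rule, gave 112 calls over 39 genes tested. In neuronal spots 17 were higher and 3 lower (13.7% and 18.1% of all genes), in radial glia 10 and 7 (8.6% and 19.2%), in ganglion 10 and 0 (6.01% and 0.748%), in retina 6 and 1 (4.97% and 2.71%) and in olfactory neuron spots 4 and 3 (6.93% and 5.41%). In muscle 3 were higher and 11 lower (5.84% and 8.23%), in bone 2 and 9 (4.97% and 5.48%), in oral mesenchyme 0 and 10 (4.6% and 4.45%), in stratified epithelium 1 and 9 (7.53% and 8.03%), in loose mesenchyme 0 and 5 (6.08% and 3.22%) and in cartilage 1 and 0 (3.95% and 0.482%). Among netrin receptors, whose values had been seen when they were chosen for naming, Dcc stood at 84.4, 36, 93.7 and 86.5 CPM in neuronal spots against 20.5, 10.4, 22.8 and 15.6 CPM (2.63), Unc5b at 176, 272, 194 and 185 CPM in bone against 53.9, 82.9, 67.6 and 52.4 CPM (1.89) and Unc5c at 62.7, 46.4, 57.1 and 72.7 CPM in cartilage against 26.2, 20.4, 22.2 and 26.8 CPM (1.5). Dcc is the attractive receptor for Ntn1, and the Unc5 proteins mediate repulsion.

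To describe how receptors lay relative to their ligands, the receptor level was summed in the 10% of spots of an area with the highest ligand level, in the direct neighbours of those spots and in all other spots, for 34 textbook pairs. The receptor was higher in ligand-rich than in other spots in every area for 5 pairs, lower in every area for 16, and of mixed direction for 13. No other pairs of genes were measured in this way, so how often arbitrary pairs give such directions is not known. No test was run, since the spots of an area are not replicates and ligand and receptor of a pair come from the same spots. The other spots span all tissue classes, and the part of tissue class in these ratios was not tested.

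Ephb1 in spots rich in Efnb3 stood at 147, 216, 186 and 163 CPM against 84, 80.2, 56 and 29.9 CPM in other spots, a mean log2 ratio of 1.60 ± 0.68 (SD, n = 4 areas). Epha2 in spots rich in Efna1 stood at 50.8, 46.2, 64.8 and 51.9 CPM against 15.3, 21, 25 and 33.1 CPM (1.22 ± 0.45). These receptors were also raised in the neighbouring spots in all 4 areas. Dcc around Ntn1 gave 0.98 ± 0.64, and Robo1 around Slit1 0.92 ± 0.47, with Robo1 at 433, 389, 562 and 348 CPM in Slit1-rich spots. Other receptors of these ligands differed. Around Ntn1, Neo1 (-0.18 ± 0.09) and Unc5c (-0.79 ± 0.50) were lower in all 4 areas and Unc5b (-0.67 ± 0.79) in 3. Robo2 around Slit1 gave 0.50 ± 0.81, above 0 in 3 areas.

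In the opposite direction, Epha5 in Efna5-rich spots stood at 16.8, 8.04, 15.4 and 6.01 CPM against 56, 20.7, 24.9 and 16.3 CPM in other spots (-1.31 ± 0.44), with neighbours between them in every area, at 27.6, 9.8, 15.6 and 10.8 CPM. Plxna4 around Sema6a (-0.98 ± 0.58), Ephb4 around Efnb2 (-0.88 ± 0.31) and Epha4 around Efna5 (-0.86 ± 0.49) were lower as well. Robo1 was lower in spots rich in the other Slit ligands, where the mean log2 ratio of Robo1 was -0.83 ± 0.48 in Slit2-rich and -0.62 ± 0.42 in Slit3-rich spots, negative in all 4 areas for both.

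**Figure D4:**
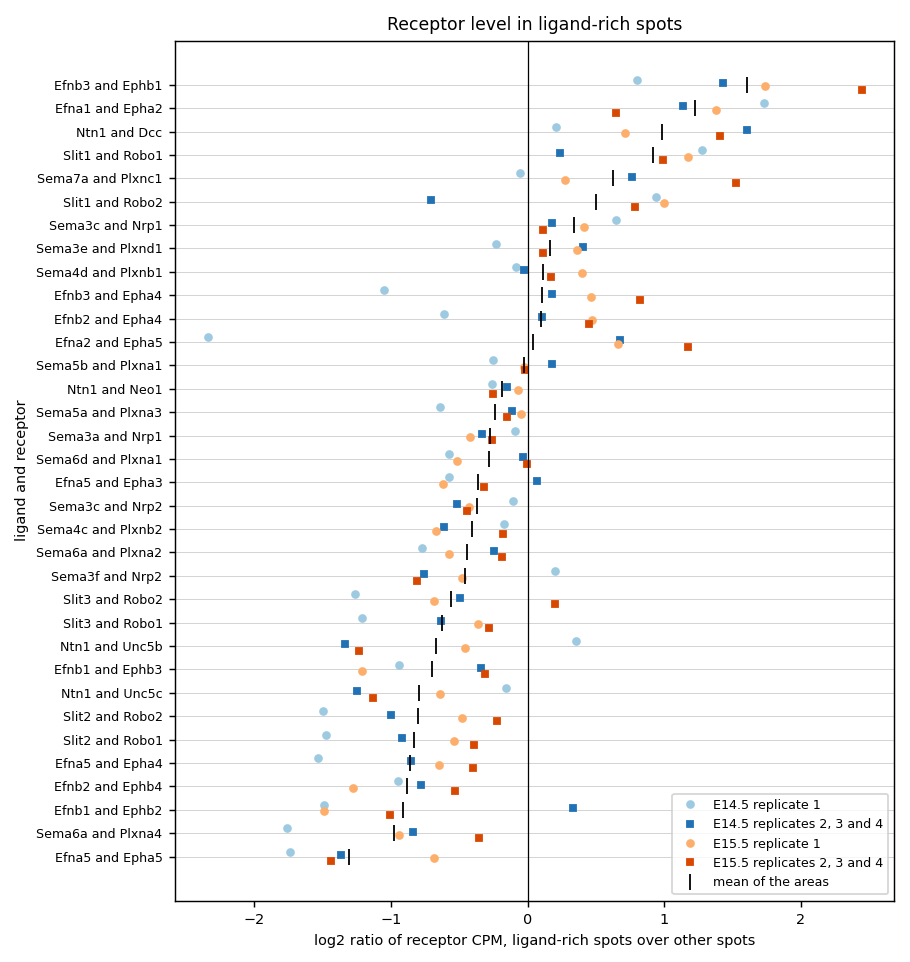
Log2 ratio of the receptor CPM in ligand-rich spots over other spots (x axis) for 34 pairs of ligand and receptor (rows, ordered by mean), with a point for each capture area and a black tick for the mean. Efnb3 with Ephb1 is at the top and Efna5 with Epha5 at the bottom, and points of 5 pairs lie wholly to the right of 0.

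Between the stages no member passed an adjusted p of 0.1, in all tissue spots (64 tested), in neuronal and radial glia spots together (61 tested) or in connective-tissue spots, that is muscle, cartilage, bone and both mesenchyme classes (64 tested). The edgeR test called 0% of all genes in each of the 3 comparisons, and DESeq2 called none of the members and 37, 1 and 2 of all 19465 genes. At an unadjusted p under 0.05 there were 7, 2 and 1 members, where 5.96%, 1.67% and 0.896% of all genes reached it. The CPM of the stages did not overlap for 23 of 64, 19 of 61 and 17 of 64 members, with 40.1%, 26.1% and 23.8% of all genes not overlapping. Of the 40 other pathway genes tested, none was called by edgeR or DESeq2 in any of the comparisons, with 3, 2 and 0 at an unadjusted p under 0.05.

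In all tissue spots 23 of 64 members had a positive log2 fold change from E14.5 to E15.5, and the median was -0.18, against -0.00 over all genes. Slit1 stood at 91.3 and 78.2 CPM at E14.5 and 56.7 and 26.5 CPM at E15.5 (log2 fold change -1.08, SE 0.36, adjusted p = 0.769). Efnb3 stood at 212 and 196 CPM and 140.1 and 117 CPM (-0.73), and Sema4g, a transmembrane semaphorin, at 76.8 and 79.1 CPM and 53.3 and 42.2 CPM (-0.77). Ephb1 (-0.79), Epha4 (-0.66), Plxnb1 (-0.58) and Sema4c (-0.50) had negative log2 fold changes as well, without overlap of the stages. Neuronal and radial glia spots held 50.5% and 30.8% of the UMIs at E14.5 and 22.9% and 8.72% at E15.5, and in all tissue spots stage and share of brain cannot be told apart. Within neuronal and radial glia spots Slit1 stood at 149 and 203 CPM and 156 and 171 CPM (-0.13). Efnb3 stood there at 263 and 377 CPM and 253 and 414 CPM (0.03), and the stages overlapped for both. Sema4g (-0.11) and Ephb1 (-0.16) overlapped there as well. Epha4 stood there at 372 and 422 CPM and 365 and 263 CPM (-0.34), without overlap, as did Plxnb1 (-0.28) and Sema4c (-0.19). In connective-tissue spots Efnb3 (-0.38), Plxnb1 (-0.24), Sema4c (-0.21) and Sema4g (-0.56) were lower without overlap. Slit1 (0.02), Ephb1 (0.10) and Epha4 (-0.08) overlapped there. Without E15.5 replicate 1, the edgeR test in all tissue spots called Slit1 (-1.74, adjusted p = 0.0855) and Plxna4 (-1.86, adjusted p = 0.0624), with 78 of 15990 genes called.

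Epha1 had a positive fold change in all tissue spots, with 8.68 and 11.2 CPM at E14.5 and 20.6 and 19 CPM at E15.5 (0.92, SE 0.30, adjusted p = 0.769). Stratified epithelium spots, where Epha1 was highest, held 1.49% and 3.87% of the UMIs at E14.5 and 9.15% and 6.35% at E15.5, and their part in this difference was not tested. In connective-tissue spots it stood at 14.7 and 14.5 CPM and 20.3 and 17.9 CPM (0.35), and in neuronal and radial glia spots at 2.69 and 2.11 CPM and 1.88 and 1.54 CPM (-0.46, adjusted p = 1.0), without overlap of the stages in either. With class as a term and area as a random block in limma, its log2 fold change was 0.69 (adjusted p = 0.0561) and that of Sema7a, a membrane-anchored semaphorin, 0.57 (adjusted p = 0.0885). That fit treats the class sums of an area as correlated samples, and it called 1145 of 14429 genes where the area sums gave none. Sema4g in connective-tissue spots stood at 43 and 43.1 CPM and 29.4 and 30.2 CPM (-0.56, unadjusted p = 0.0337, adjusted p = 1.0).

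In neural spots the smallest unadjusted p-values belonged to Efnb2 and Robo3. Efnb2, a B-type ephrin of arteries and axons, stood at 107 and 75.3 CPM at E14.5 and 152 and 137 CPM at E15.5 (0.67, adjusted p = 1.0). Robo3 stood at 9.49 and 9.82 CPM and 13.1 and 22.1 CPM (0.84, adjusted p = 1.0). A test of whether the stage effect differed between neural and connective-tissue spots, added after the data had been seen, called none of 64 members and none of 14794 genes by edgeR, with 3 members (Epha5, Sema3b and Slit2) and 389 genes at an unadjusted p under 0.05.

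**Figure D5:**
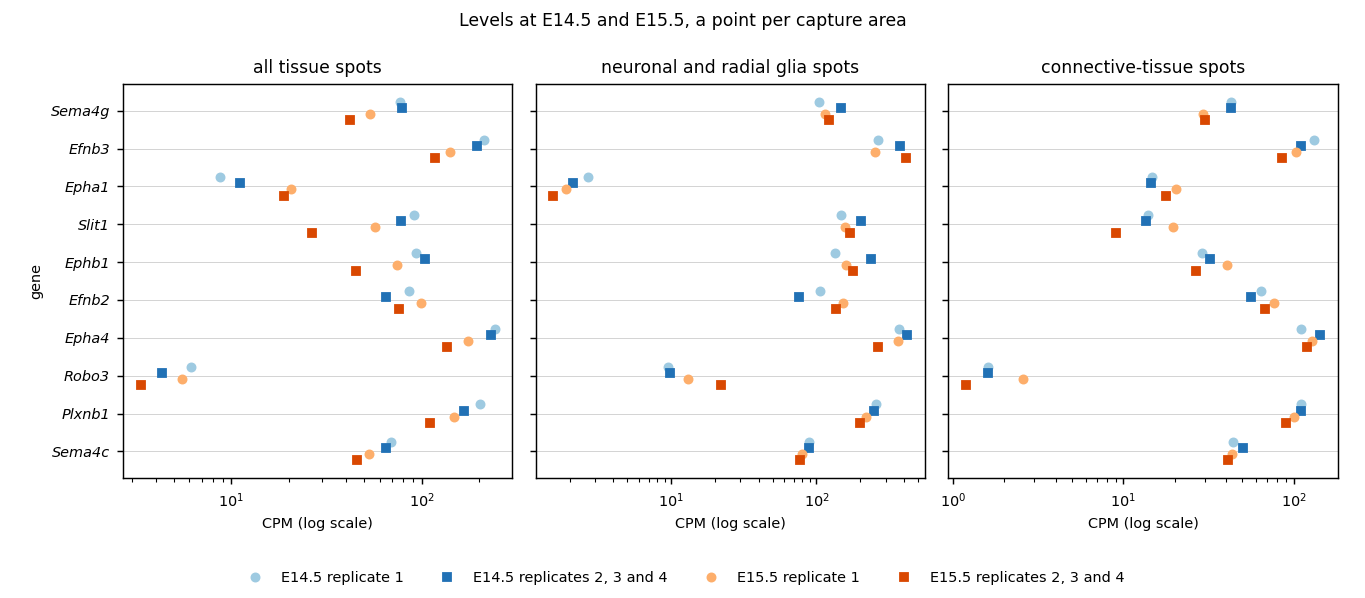
CPM on a log axis of the 10 named genes (rows) at E14.5 (blue) and E15.5 (orange), a point for each capture area, in all tissue spots, in neuronal and radial glia spots and in connective-tissue spots. In all spots the E15.5 points of Slit1 and Efnb3 lie left of the E14.5 points, whereas in neuronal and radial glia spots they overlap. The E15.5 points of Epha4, Plxnb1 and Sema4c lie left of their E14.5 points in both.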

How the data were processed

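Visium libraries of 4 capture areas, 2 each at E14.5 and E15.5, were analysed from the UMI count matrices that the authors deposited, one per area. Per the file headers, counts of replicate 1 came from Space Ranger 1.3.1 and the others from Space Ranger 2.0.0. The submitters' processing notes name Space Ranger, Cell Ranger and mm10, and the probe set and annotation version are not given in the sources used here. Members and lists were chosen with earlier results of these data known.

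Spots over tissue were used (6357). Totals were 15438992, 109127953, 67344393 and 89128289 UMIs. Each spot took the class whose summed marker UMIs per 10000 lay highest above a threshold, in standard deviations. A total of 3 listed marker genes were not in the matrices. No doublet caller was run, since spots hold several cells.

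UMIs were summed per area, or per class and area (at least 10 spots), and tested with edgeR 4.0.16 (TMM, quasi-likelihood, Benjamini-Hochberg over all genes tested). DESeq2 1.42.0, limma 3.58.1, other filters, scalings and depths, and leaving out areas were alternatives. Scripts (Python 3.11.15, R 4.3.3) were tested on simulated data. Promoters came from RefSeq, GRCm38.p6, and gene positions from the GENCODE annotation of GRCm38.

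Named genes were, for stages, up to 10 members with the smallest p among those whose areas did not overlap, where fewer than 10 passed. For classes they were the 4 called higher and 2 called lower with the largest change seen in every area. For levels they were the top 2 per family and those under 1 CPM in every area. For pairs they were the 4 highest and 4 lowest with one sign in all areas. Other members named were chosen after their values were seen.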

Additional observations from a re-analysis of the deposited data

Results flagged for a closer look

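Member UMIs were also present in barcodes that lay off the tissue and entered no comparison. In E14.5 replicates 2, 3 and 4, 8 such barcodes held 1078 UMIs of 61 members, or 5144 CPM of their 209555 UMIs, against 4974 CPM in tissue spots. In E15.5 replicates 2, 3 and 4, 11 such barcodes held 1522 UMIs of 58 members, or 4312 CPM of their 352936 UMIs, against 4396 CPM in tissue spots. None of 70 sets of 4 areas had a value far from the others by Dixon's criterion.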

How the results depend on the processing

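With 2 areas per stage, only large stage differences could pass, and E14.5 replicate 1 had the fewest UMIs. In all tissue spots, 2 members were called without E15.5 replicate 1 (range over areas left out 0 to 2) and 2 with tissue class as a term (limma), with the partner genes at 2 without E15.5 replicate 1 (range 0 to 2) and 1 with limma. Fits that leave out an area assume that the lone area of a stage varies like the others. No alternative called a member in neural or connective-tissue spots, among them DESeq2 and the replicate block, which called 0 members in each test. Areas of the same replicate number share a Space Ranger version and a number of sections, and their deviations from the stage means correlated at 0.246, but no label ties them to an animal or day. Over all genes, the fit without E15.5 replicate 1 called 78 of 15990 in all tissue spots and DESeq2 37. In neural spots, the block called 63 genes, no filter on low counts 127, and the fit without E14.5 replicate 1 65, where the reported fit called 0. In connective-tissue spots no filter called 25 and the fit without E15.5 replicate 1 27.

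Some stage directions turned, and the cause was not tested. The log2 fold change of Robo3 in all spots was 0.67 with limma. In connective-tissue spots Slit1 was -0.10 with the replicate block and -0.0108 after thinning to the smallest depth, and Robo3 was -0.00338 and -0.18. Leaving out a replicate 1 area gave -0.0555 to 0.34 for Efnb2 in all spots, -0.23 to 0.30 for Efnb3 in neural spots, and -0.61 to -0.00377 for Slit1, -0.22 to -0.00771 for Ephb1 and -0.46 to 0.13 for Robo3 in connective-tissue spots. Leaving out the E14.5 area of replicates 2, 3 and 4 gave 0.16 for Sema4g, 0.12 for Slit1 and 0.32 for Ephb1 in neural spots and 0.17 for Epha4 in connective-tissue spots. Leaving out the E15.5 area of replicates 2, 3 and 4 gave -0.32 for Efnb3 in neural spots and 0.042 for Robo3 in all spots.

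The class calls numbered 92 after thinning to the smallest class sum and between 119 and 137 under the other alternatives. Of 523 values of named members in classes, 503 kept direction and call, 20 kept direction without the call and none reversed. TMM scaling moved none of the 64 levels beyond the spread between areas, and the 8 named pairs kept their direction with the top 5% of spots and with spots of at least 5000 UMIs. The count of pairs with the receptor higher in every area was 5 and 7 under these, and the other pairs were not examined singly.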
